A study of Oryza sativa with 24 samples.

Results

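The genes described here are 4 of the genes that make trehalose in rice, followed in anthers of 4 rice lines with and without cold. They are the trehalose-6-phosphate phosphatase genes OsTPP1 (Os02g0661100, chromosome 2), OsTPP2 (Os10g0553300, chromosome 10) and OsTPP3 (Os07g0624600, chromosome 7), and the trehalose-6-phosphate synthase gene OsTPS1 (Os05g0518600, chromosome 5). They were chosen by identifier from the 37910 identifiers in the files, with earlier results of these data known. All 4 passed the filter on low values. Plants of Nipponbare, Sasanishiki, PL9 and Lambayeque1 were raised 20 to a pot under greenhouse days of 25 °C and nights of 19 °C, with side shoots removed. Cold plants of each line spent 4 days at 12 °C at the booting stage, from an auricle distance within 1 cm of 0, when the pollen is at its early microspore stage. Untreated plants of the same line had no cold. Each of the 8 groups has 3 libraries by its titles, although the series text speaks of fewer replicates. No label ties a library to a plant or pot, or says how many plants were pooled, so a p-value here may reflect technical spread alone.

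Trehalose is a disaccharide of glucose that plants hold in very small amounts. A synthase joins glucose from UDP-glucose to glucose-6-phosphate and gives trehalose-6-phosphate, a phosphatase removes the phosphate to leave trehalose, and trehalase splits trehalose into glucose. Trehalose-6-phosphate follows the sucrose level and restrains the energy-sensing kinase SnRK1, so that synthases and phosphatases act on a signal as well as on a sugar. In rice, OsTPP1 is known as a phosphatase gene induced by cold in seedlings, and raised expression of OsTPP1 or OsTPS1 has been linked to stress tolerance of the plant. In the anther, sugar reaching the tapetum and microspores feeds pollen growth and starch.

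Values are named TPM, an abundance per transcript length, and were treated as abundances on a scale set by the authors. Levels of different genes are set side by side on that assumption, since how rows were joined per gene is not given. Read depth is unknown. Log2 differences are taken on log2(abundance + 1), which understates the change of low genes. A gene is said to rise or fall where limma's test, adjusted by Benjamini-Hochberg over all 27655 identifiers tested, gave an adjusted p under 0.05. In the average over lines, 51.5% of all identifiers tested passed in either direction, 25.8% higher and 25.6% lower, so passing there is common. Stamen identity genes summed to between 1837 and 4693 per library, and a list of carpel and leaf markers to between 7.09 and 132. Most of the latter sum came from Os12g0274700 (6.94 to 131), meant as a leaf marker, whose name did not match by gene position. The carpel genes DL and OsMADS13 reached at most 2.65 and 1.81. Libraries 2 and 1 of PL9 after cold stood apart, with median correlations to their own group of 0.901 and 0.915, against 0.935 or more in groups other than PL9 after cold.

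OsTPP1 and OsTPS1 stand on 2 rows each in the files, and their columns hold copied values. On such rows the value of 1 library fills 2 neighbouring columns, so that row and column together, not the column name alone, tell the library. Values of these genes were read back in the line order Sasanishiki, Lambayeque1, PL9, Nipponbare. It is the 1 order of 24 that fits all 5399 identifiers on several rows, and the next best order fits 5359. Identifiers on 2 rows fit every order of lines, since reordering lines keeps their neighbouring columns together. That fit therefore could not decide the order for OsTPP1 and OsTPS1, which rests on identifiers on more rows and on the match below. Over identifiers on 2 rows, correlations between libraries matched those over identifiers on 1 row with r = 0.982. Of 384 arrangements of lines and treatments, the best other than the one used reached 0.85. Exchanging 2 libraries lowered the match in 276 of 276 cases, but the closest came to 0.98, so library numbers within a group are less firmly set than groups. OsTPP2 and OsTPP3 stand on 1 row and need no such reading.

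OsTPP1 fell with cold in each line. In Nipponbare its abundance was 215, 218 and 95.2 in untreated libraries and 33.0, 61.5 and 92.5 after cold. In Sasanishiki it was 116, 259 and 116 untreated and 45.9, 39.0 and 46.2 after cold. In PL9 it was 151, 178 and 242 untreated and 37.3, 104 and 46.8 after cold. Every cold library lay below every untreated library of its own line, with the narrowest gap in Nipponbare, between cold library 3 and untreated library 3. In Lambayeque1 the values were 128, 133 and 94.0 untreated and 25.7, 44.7 and 37.0 after cold.

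Group means of OsTPP1 went from 176 ± 70.0 to 62.3 ± 29.8 in Nipponbare, from 164 ± 82.7 to 43.7 ± 4.06 in Sasanishiki, from 191 ± 46.9 to 62.6 ± 35.9 in PL9 and from 118 ± 21.0 to 35.8 ± 9.57 in Lambayeque1 (SD, n = 3 libraries in each group). The log2 differences were -1.51 in Nipponbare (SE 0.42, limma adjusted p = 0.011), -1.78 in Sasanishiki (SE 0.42, adjusted p = 0.00402), -1.70 in PL9 (SE 0.42, adjusted p = 0.00916) and -1.71 in Lambayeque1 (SE 0.42, adjusted p = 0.00572). Falling identifiers made up 14.8% of all tested in Nipponbare, 13.1% in Sasanishiki, 8.24% in PL9 and 12.1% in Lambayeque1. The average over lines was -1.68 (SE 0.21, 95% interval -2.11 to -1.24, adjusted p = 2.26e-06), a 3.19-fold lower abundance. In the bulk anther, fewer cells that express a gene and less RNA of it per cell cannot be told apart. In Nipponbare the call was lost without untreated library 1 (-1.31, adjusted p = 0.0567), without untreated library 2 (-1.31, adjusted p = 0.0533) or without cold library 1 (-1.12, adjusted p = 0.0762).

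The size of the OsTPP1 fall did not differ detectably between lines. The 6 differences between lines in the cold response ran from -0.27 to 0.08 on the log2 scale, with adjusted p from 0.843 to 0.999. Their 95% intervals reached from -1.51 to 1.31, so differences of more than 2-fold in either direction lie within them. Over all identifiers tested, the share that passed in these 6 comparisons was 5.57% for Sasanishiki minus Nipponbare, 4.57% for PL9 minus Nipponbare, 0.582% for Lambayeque1 minus Nipponbare, 1.55% for PL9 minus Sasanishiki, 3.38% for Lambayeque1 minus Sasanishiki and 0.944% for Lambayeque1 minus PL9. OsTPP1 levels gave the order PL9, Nipponbare, Sasanishiki, Lambayeque1 in untreated anthers and PL9, Nipponbare, Sasanishiki, Lambayeque1 after cold. None of the 6 untreated pairs passed the test (adjusted p from 0.317 to 0.854), nor did any of the 6 cold pairs (0.382 to 0.994), and 0 of either 6 had an unadjusted p under 0.05. Between untreated lines, in the same order of pairs, 39.4%, 31.5%, 8.57%, 23.4%, 32.7% and 12.9% of all identifiers tested passed, and between cold lines 29.9%, 7.3%, 2.75%, 17.3%, 24.9% and 7.17%.

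**Figure D1:**
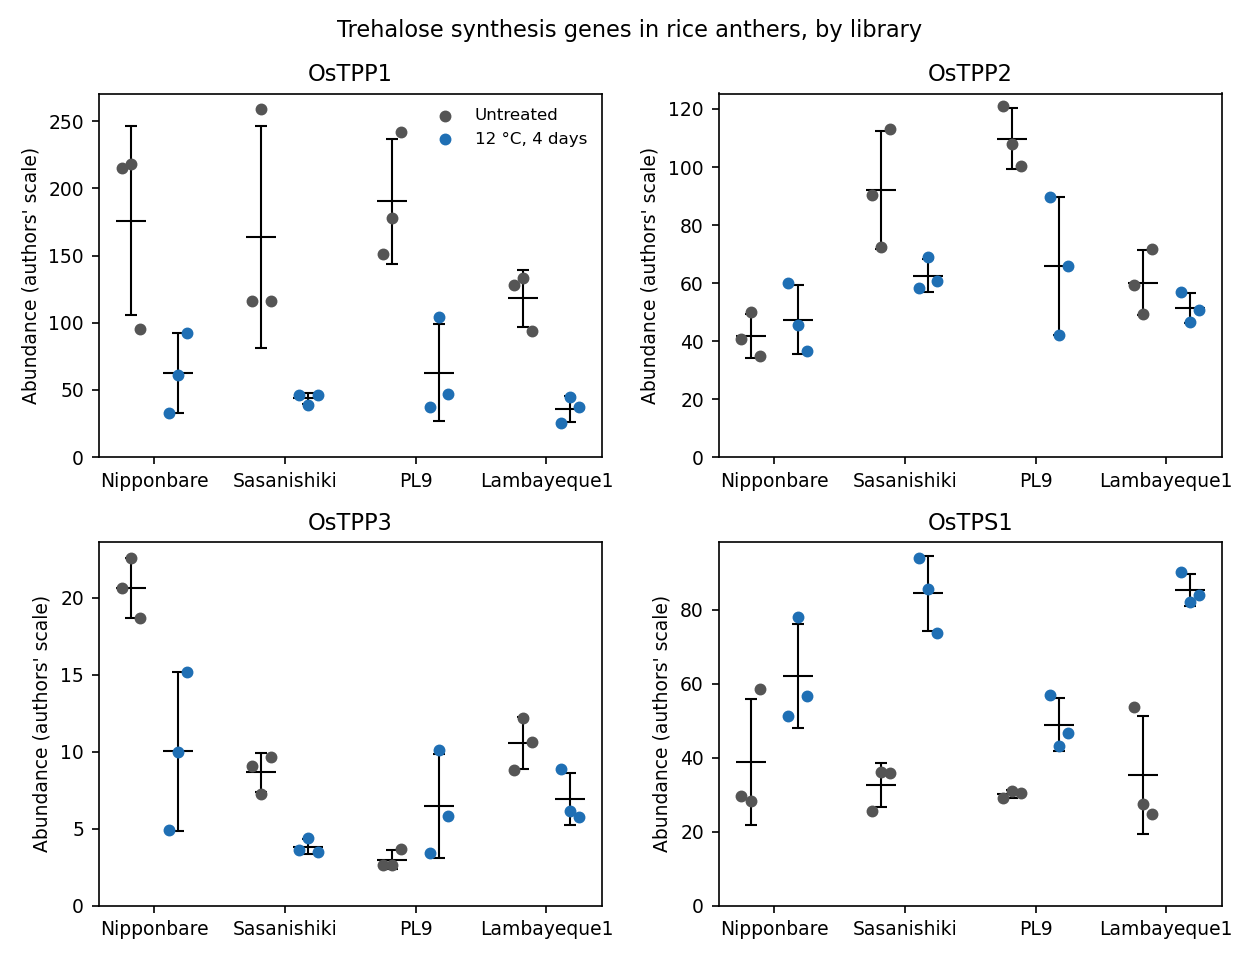
Abundance of OsTPP1, OsTPP2, OsTPP3 and OsTPS1 on the authors' scale (vertical axes, starting at 0) in each of the 24 libraries, by line, with untreated libraries in grey and cold libraries in blue; black bars are the mean and SD of 3 libraries. For OsTPP1 the cold libraries lie below the untreated ones in each line, for OsTPS1 they lie above them in each line but Nipponbare, and for OsTPP3 PL9 has the lowest untreated values, 2.63 to 3.70.

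OsTPS1 rose with cold in Sasanishiki, in Lambayeque1 and in the average over lines. In Sasanishiki its abundance was 25.7, 36.2 and 36.0 in untreated libraries and 93.9, 85.6 and 73.7 after cold. In Lambayeque1 it was 53.7, 27.4 and 24.8 untreated and 90.2, 82.0 and 83.9 after cold. The groups were apart in both lines, with cold means of 84.4 ± 10.2 and 85.4 ± 4.29 over untreated means of 32.7 ± 5.99 and 35.3 ± 16 (SD, n = 3 libraries each). In PL9 it was 29.1, 31.1 and 30.4 untreated and 57.0, 43.2 and 46.6 after cold. In Nipponbare it was 29.7, 28.3 and 58.6 untreated and 51.4, 78.1 and 56.7 after cold. The groups did not overlap in PL9 either, whereas untreated library 3 of Nipponbare lay above 2 of the cold libraries of that line.

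The log2 difference of OsTPS1 was 1.35 in Sasanishiki (SE 0.27, limma adjusted p = 0.0011) and 1.33 in Lambayeque1 (SE 0.27, adjusted p = 0.00129), where 12.9% and 11.9% of all identifiers tested rose. It was 0.72 in Nipponbare (SE 0.27, adjusted p = 0.0505) and 0.67 in PL9 (SE 0.27, adjusted p = 0.0896), both short of the threshold, where 12.8% and 9.35% of identifiers rose. Without untreated library 3 of Nipponbare, the value there was 1.05 (adjusted p = 0.00493). The average over lines was 1.02 (SE 0.13, 95% interval 0.74 to 1.30, adjusted p = 3.99e-06), a 2.03-fold higher abundance. The lines were not shown to differ in this response. Their 6 differences lay between -0.68 and 0.67 (SE 0.38, adjusted p from 0.366 to 0.988), with 95% intervals from -1.47 to 1.45. Untreated OsTPS1 levels were close in the 4 lines (means 30.2 to 38.9, adjusted p of 0.476 or more for all 6 pairs). After cold the means gave the order Lambayeque1, Sasanishiki, Nipponbare, PL9. The difference of PL9 from Sasanishiki was -0.78 (SE 0.27, adjusted p = 0.05, not under the threshold) and that of Lambayeque1 from PL9 was 0.80 (SE 0.27, adjusted p = 0.0773).

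**Figure D2:**
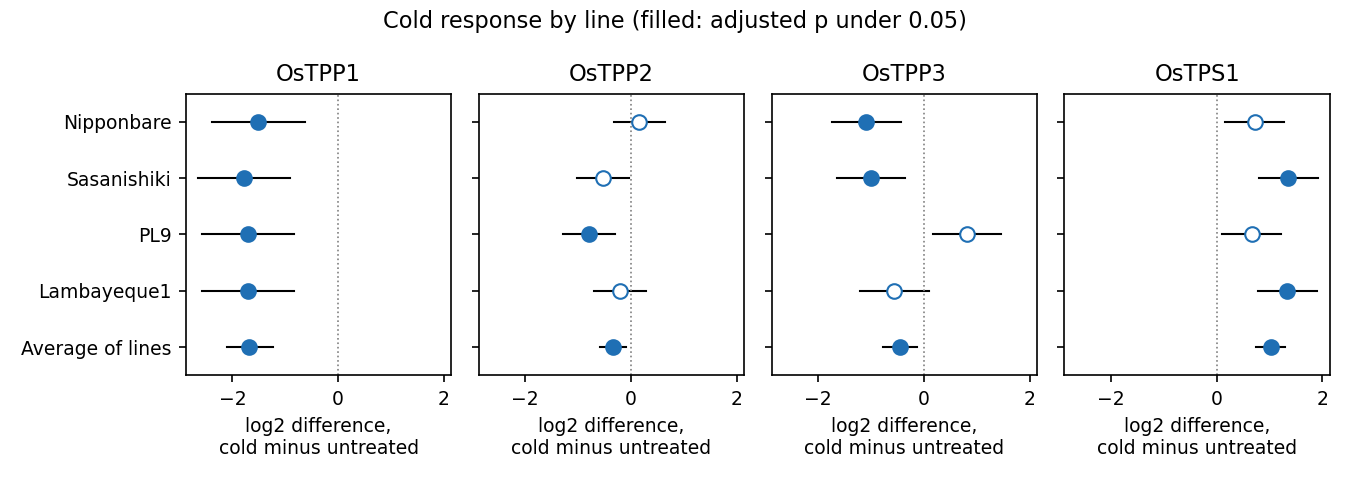
Log2 difference in abundance, cold minus untreated (horizontal axis, on log2 of abundance + 1), for each gene in each line and averaged over lines, with 95% intervals from limma; filled points have an adjusted p under 0.05. OsTPP1 is filled in all 4 lines (-1.78 to -1.51), OsTPS1 in Sasanishiki and Lambayeque1, OsTPP3 in Nipponbare and Sasanishiki, and OsTPP2 in PL9.

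OsTPP2 differed mainly between untreated lines. Its untreated abundance was 121, 108 and 100.3 in PL9, 90.5, 72.5 and 113 in Sasanishiki, 59.2, 49.3 and 71.7 in Lambayeque1 and 40.8, 50 and 34.9 in Nipponbare. All PL9 and Sasanishiki libraries lay above all Nipponbare and Lambayeque1 libraries. PL9 exceeded Nipponbare by 1.38 on the log2 scale (SE 0.23, limma adjusted p = 2.51e-04) and Sasanishiki exceeded Nipponbare by 1.11 (SE 0.23, adjusted p = 9.48e-04), where 31.5% and 39.4% of all identifiers tested differed in either direction. Lambayeque1 lay 0.87 below PL9 (log2 difference -0.87, SE 0.23, adjusted p = 0.0187, 12.9% of identifiers different). The neighbours in the order PL9, Sasanishiki, Lambayeque1, Nipponbare did not differ by the test (adjusted p = 0.46, 0.0573 and 0.199). The last called difference was lost, at adjusted p of 0.0514 to 0.0921, when untreated library 1 or 2 of Lambayeque1 or untreated library 1 of PL9 was left out.

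Cold brought OsTPP2 to 89.6, 42.0 and 66.0 in PL9 and to 58.3, 68.9 and 60.6 in Sasanishiki. It was 57.0, 46.5 and 50.8 in Lambayeque1 and 60.0, 45.5 and 36.6 in Nipponbare after cold. Cold and untreated libraries did not overlap in PL9 and Sasanishiki and did so in the other two lines. OsTPP2 fell in PL9 by 0.79 on the log2 scale (SE 0.23, limma adjusted p = 0.0266), from 109.7 ± 10.4 to 65.9 ± 23.8 (SD, n = 3 libraries each). The log2 differences were -0.53 in Sasanishiki (adjusted p = 0.108), -0.21 in Lambayeque1 (0.567) and 0.16 in Nipponbare (0.658), each with an SE of 0.23. The average over lines was -0.34 (SE 0.12, adjusted p = 0.0206). None of the 6 differences between lines in this response passed (adjusted p from 0.11 to 0.792; 1 had an unadjusted p under 0.05). After cold, none of the 6 pairs of lines differed by the test (adjusted p from 0.189 to 0.993; 0 had an unadjusted p under 0.05). The call in PL9 was lost in 4 of the 6 fits without 1 of its libraries. The value was -0.50 without cold library 2 (adjusted p = 0.17), -0.82 without cold library 3 (0.0602), -0.72 without untreated library 1 (0.104) and -0.80 without untreated library 2 (0.0657), against -1.04 without cold library 1 (0.00426). With cold library 3 of PL9 alone, without cold libraries 1 and 2, the value was -0.72.

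OsTPP3 was the least abundant of the 4 genes and the one whose lines differed most. Its untreated abundance was 20.6, 22.6 and 18.7 in Nipponbare, 8.83, 12.2 and 10.6 in Lambayeque1, 9.05, 7.22 and 9.68 in Sasanishiki and 2.66, 2.63 and 3.70 in PL9. Nipponbare lay above all other untreated libraries and PL9 below them. PL9 was below Nipponbare by a log2 difference of -2.44 (SE 0.31, limma adjusted p = 1.12e-05) and below Sasanishiki by -1.27 (SE 0.31, adjusted p = 0.00454, 23.4% of identifiers different). Sasanishiki differed from Nipponbare by -1.17 (SE 0.31, adjusted p = 0.00536), and Lambayeque1 lay 1.53 above PL9 (SE 0.31, adjusted p = 0.00234). Neighbours in the order Nipponbare, Lambayeque1, Sasanishiki, PL9 passed the test only for the last pair, the others having adjusted p of 0.0755 and 0.555. The means of OsTPP2 and OsTPP3 thus put the untreated lines in opposite order, although most neighbours within each order did not differ by the test.

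After cold OsTPP3 fell in Nipponbare, to 4.89, 9.95 and 15.2, and in Sasanishiki, to 3.61, 4.39 and 3.48. The cold libraries lay below the untreated ones in both lines. The log2 differences were -1.09 in Nipponbare (SE 0.31, limma adjusted p = 0.0129) and -1.0 in Sasanishiki (SE 0.31, adjusted p = 0.0224). In Lambayeque1 it was 8.89, 6.15 and 5.74 after cold, a log2 difference of -0.56 (SE 0.31, adjusted p = 0.206). In PL9 it was 3.45, 10.1 and 5.85 after cold, a log2 difference of 0.81 (SE 0.31, adjusted p = 0.075), with cold library 1 inside the untreated range. Without that library the value in PL9 was 1.14 (adjusted p = 0.0138). Nipponbare lost the call without cold library 1 (-0.69, adjusted p = 0.0973). In Sasanishiki the call was lost without untreated library 1 or 3 or cold library 1 or 3, at adjusted p of 0.0601 to 0.0713, and the value with a replicate block was adjusted p = 0.0536. The average over lines, -0.46 (SE 0.15, adjusted p = 0.0186), joins lines with opposite signs.

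The response of OsTPP3 differed between PL9 and 2 other lines. PL9 exceeded Nipponbare in the cold response by 1.90 on the log2 scale (SE 0.44, 95% interval 0.99 to 2.81, limma adjusted p = 0.0166), a comparison in which 4.57% of all identifiers tested passed. PL9 exceeded Sasanishiki by 1.81 (SE 0.44, adjusted p = 0.0415), where 1.55% passed. Against Lambayeque1 the difference, Lambayeque1 minus PL9, was -1.37 (SE 0.44, adjusted p = 0.143). Without cold library 2 of PL9, the highest of that group, the difference from Nipponbare was 1.56 (adjusted p = 0.0421) and that from Sasanishiki 1.47 (adjusted p = 0.0966). The difference from Nipponbare kept its call without any 1 library of either line (1.51 to 2.24), whereas that from Sasanishiki lost it in 9 of 12 such fits, all but those without untreated library 2 or 3 of Sasanishiki or cold library 1 of PL9 (1.47 to 2.14). With a replicate block both differences were short of the threshold (adjusted p = 0.0597 and 0.131). After cold only Sasanishiki and Nipponbare differed among the 6 pairs of lines, by a log2 difference of -1.08 (SE 0.31, adjusted p = 0.0124, 29.9% of identifiers different), and this call was lost without cold library 3 of Nipponbare (-0.74, adjusted p = 0.0997).

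In a list of 9 phosphatase genes, OsTPP1 was the most abundant in 15 of 24 libraries and OsTPP2 in the other 9. OsTPP1 took 54.1% ± 10.2 of the summed phosphatase abundance in untreated libraries and 36.5% ± 10.6 after cold (SD, n = 12 libraries each, lines mixed). OsTPP2 took 26.2% ± 9.89 and 43.3% ± 12.4, and OsTPP3 3.89% ± 2.61 and 5.03% ± 2.31. The sum of the 9 genes was 303 ± 92.6 untreated and 139.6 ± 26.0 after cold in Nipponbare, and 298 ± 56.5 and 140.4 ± 6.22 in Sasanishiki. It was 332 ± 31.9 and 153 ± 28.3 in PL9, and 239.8 ± 15.9 and 109 ± 6.87 in Lambayeque1 (SD, n = 3 libraries in each group). These sums follow OsTPP1 largely by construction and were not tested. A share also grows for a gene that falls less than the sum. OsTPP2 and OsTPP3 fell in the average over lines, by log2 differences of -0.34 and -0.46.

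**Figure D3:**
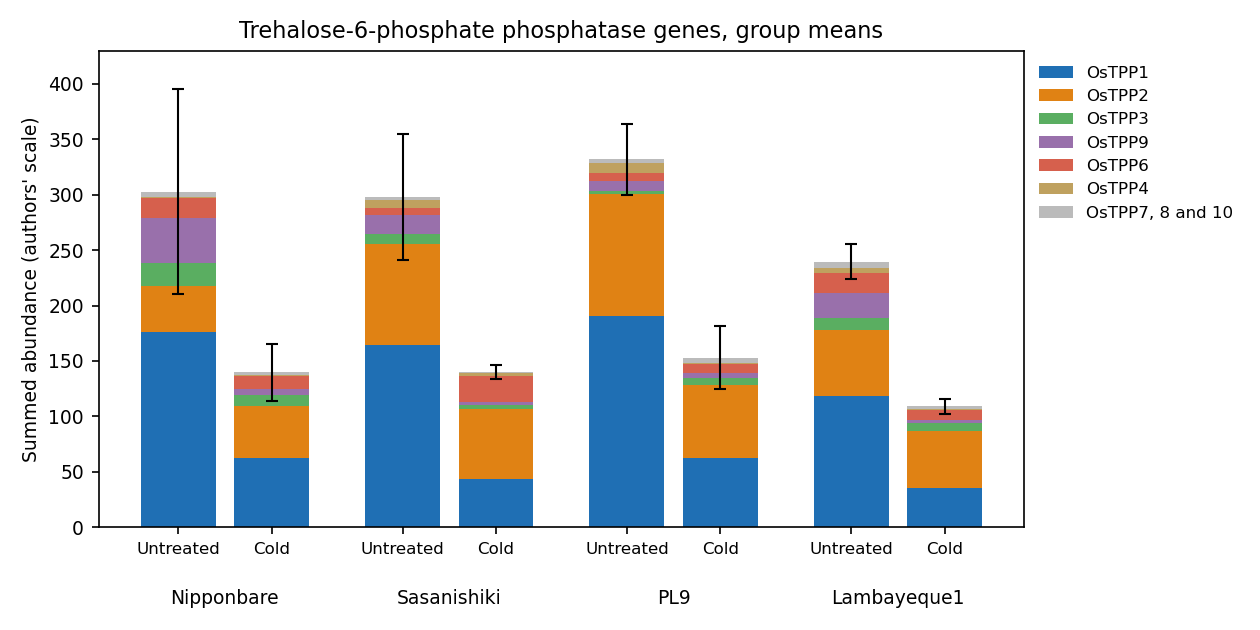
Summed mean abundance of 9 trehalose-6-phosphate phosphatase genes on the authors' scale (vertical axis, from 0), by line and treatment, each colour being a gene; the error bar is the SD of the sum over 3 libraries. OsTPP1, in blue, shrinks from 118 or more in untreated groups to 62.6 or less after cold. OsTPP2, in orange, goes from 109.7 to 65.9 in PL9, from 91.9 to 62.6 in Sasanishiki, from 60.1 to 51.4 in Lambayeque1 and from 41.9 to 47.4 in Nipponbare.

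Of the 6 other phosphatase genes in the list, 5 passed the filter on low values, and in the average over lines 3 of these 5 fell, 0 rose and 2 did not pass, beside 25.6% of all identifiers falling. Their median log2 difference was -0.96, against 0.00 over all identifiers tested. With OsTPP1, OsTPP2 and OsTPP3 counted in, 6 of 8 fell and the median was -0.71. OsTPP9 (Os03g0386500) fell by 2.07 on the log2 scale (SE 0.29, limma adjusted p = 9.90e-06) and OsTPP4 (Os02g0753000) by 1.55 (SE 0.12, adjusted p = 6.42e-09). OsTPP9 means went from 40.9 ± 17.7 to 4.89 ± 1.45 in Nipponbare and from 8.65 ± 4.79 to 3.97 ± 3.77 in PL9 (SD, n = 3 libraries each), with a log2 difference in PL9 of -1.10 (adjusted p = 0.206). OsTPP4 was low throughout, at 0.955 to 10.1 in untreated libraries and 0 to 2.69 after cold. OsTPP7 (Os09g0369400), known for growth of rice seedlings under water, had an average of -0.96 (adjusted p = 0.0151) and was named after its value was seen. Its PL9 cold libraries spread from 0.271 to 8.86. OsTPP8 and OsTPP6 did not pass (0.09 and 0.12, adjusted p = 0.627 and 0.599), and OsTPP10 stayed under the filter at 0.552 or less.

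Of 9 identifiers planned as synthases, OsTPS1 rose in the average over lines, where 25.8% of all identifiers rose. Another 4 fell, beside 25.6% of all identifiers falling, and 4 did not pass. The 4 that did not pass lay between -0.09 and 0.43. In Nipponbare, where OsTPS1 did not pass, Os08g0414700 rose by 0.76 (adjusted p = 0.0409). The other 8 have no checked name in the reference table, so their role is not stated here. Os08g0445700 fell by 1.64 on the log2 scale (SE 0.20, limma adjusted p = 2.31e-06), and OsTPS1 or Os02g0790500 held the highest abundance of the list in 11 and 13 of 24 libraries. The list had a median log2 difference of -0.09. Os10g0521000, planned as trehalase and likewise without a checked name, had an average log2 difference of 0.81 (SE 0.14, adjusted p = 6.85e-05), with 1.69 in Sasanishiki (adjusted p = 2.23e-04) and values short of the threshold in the other lines.

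**Figure D4:**
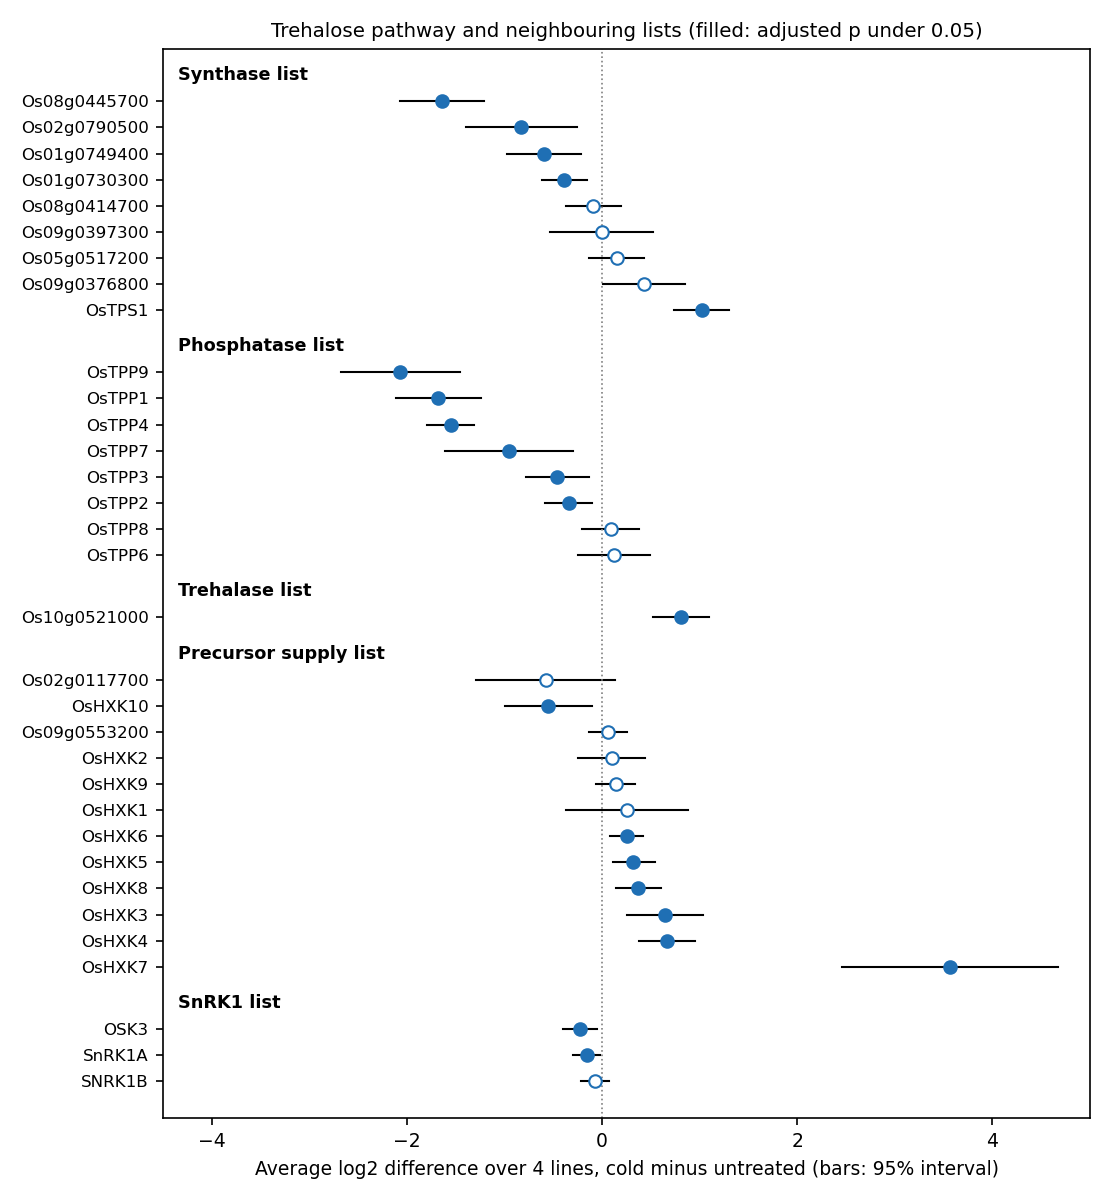
Average log2 difference over the 4 lines, cold minus untreated (horizontal axis), with 95% intervals from limma, for identifiers of 5 lists around trehalose; filled points have an adjusted p under 0.05, and identifiers without a checked name are shown as such. In the phosphatase list 6 of 8 points are filled and lie left of 0, OsTPS1 lies at 1.02 above the rest of its list, and OsHXK7 lies farthest right at 3.57.

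The precursor list holds genes for glucose-6-phosphate and UDP-glucose supply. Of its 12 identifiers, 10 of them hexokinase genes with checked names and 2 planned as UDP-glucose pyrophosphorylases without one, 6 rose in the average over lines, 1 fell and 5 did not pass, beside 25.8% of all identifiers rising. The list median was 0.25. In single lines 1 of 12 rose in Nipponbare, 2 in Sasanishiki, 1 in PL9 and 2 in Lambayeque1, near the 9.35% to 12.9% of all identifiers that rose there. OsHXK7 (Os05g0187100), a hexokinase gene that also stands on 2 rows, had an average log2 difference of 3.57 (SE 0.53, limma adjusted p = 1.70e-05). Its mean went from 7.93 ± 5.54 to 161 ± 75.0 in Sasanishiki and from 14.8 ± 6.0 to 195 ± 164 in Lambayeque1 (SD, n = 3 libraries each). In PL9 its cold libraries spread from 9.83 to 979, and in Nipponbare the log2 difference of 2.4 did not pass (adjusted p = 0.0989). OsHXK10, described in rice for anther opening and pollen, had an average of -0.55 (adjusted p = 0.0385). Of 3 SnRK1 kinase genes, OSK3 and SnRK1A fell by 0.23 and 0.16 (adjusted p = 0.0294 and 0.0489), beside 25.6% of all identifiers falling. SNRK1B did not pass (-0.07, adjusted p = 0.403). The count of 2 falling SnRK1 genes dropped to 0 or 1 in 17 of the 24 fits without 1 library. OsHXK10, the SnRK1 genes, OsTPP6, OsTPP8, OsTPP10, Os10g0521000, Os02g0790500 and Os08g0414700 were named after their values were seen.

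Tapetum genes rose with cold in the same libraries. Of 5 markers, TDR and EAT1, which are tapetum transcription factor genes, OsC6, a lipid transfer protein gene, and RAFTIN1 rose in the average over lines by 1.21, 1.57, 2.03 and 1.14 on the log2 scale, with adjusted p of 5.63e-06 or less. UDT1 did not pass (0.20, adjusted p = 0.438). Their summed abundance was 4862 to 18527 in untreated libraries and 18335 to 39941 after cold, and none of the 5 was near 0. Of 4 stamen identity genes 0 rose and 2 fell. Over all identifiers tested, 25.8% rose and 25.6% fell in the average over lines. The part of the tapetum and stamen shifts in the values of the trehalose genes was not tested.

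Profiles most like each gene over the 24 libraries were found by Pearson correlation of log2(abundance + 1). For OsTPP1 they were Os03g0263400 (r = 0.906), Os02g0190500 (0.906) and Os06g0199800 (0.90). For OsTPS1 they were Os09g0532900 (0.915), Os03g0802600 (0.912) and Os10g0547500 (0.901). For OsTPP2 they were Os07g0665900 (0.955), Os04g0676650 (0.948) and Os07g0251500 (0.947), and for OsTPP3 Os03g0267500 (0.899), Os05g0354400 (0.893) and Os02g0266800 (0.886). The files do not pair these identifiers with names. The libraries share lines and treatments, so these values describe likeness in this set of libraries and carry no test.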

How the data were processed

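RNA of anthers from 24 libraries was measured by sequencing. The deposited files give 1 signal value per row, named TPM per the file headers. The tools kallisto 0.46.2 and sleuth 0.30.0 and the build IRGSP-1.0 are named, per the submitters' processing notes; how rows were joined per gene is not given in the sources used here. Column totals as deposited, copies included, were 1.20 to 1.72 times the sum of a TPM column. With each identifier entered once, totals per library were 0.86 to 1.36 times that sum. The values were therefore treated as an abundance on the authors' scale. The files hold no counts, so depth is unknown and intervals for counting error cannot be given. Read-back values replaced the copies of the 5399 identifiers on several rows, 4240 of them on 2 rows, and each of 37910 identifiers entered once.

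Identifiers reaching a value of 1 in 3 or more libraries entered the test on log2(value + 1) with limma 3.58.1 (8 group means, eBayes with a trend, R 4.3.3) for 23 comparisons, each adjusted by Benjamini-Hochberg, threshold 0.05. The fit was tested on simulated data. Tables and figures used Python 3.11.15, pandas 2.3.3, numpy 2.4.6 and matplotlib 3.10.9. The genes and lists were chosen with earlier results of these data known. Named from the lists are the identifiers with the 10 largest average changes past the threshold, and the 3 identifiers most like each gene. Names were checked by chromosome and relative gene order, within 2%, in a RefSeq table of another assembly (ASM3414082v1), which agreed for 33 of 46 list identifiers; the name OsTPS1 is not in it and was taken as given. Alternatives changed the pseudocount, filter, scaling, handling of rows, variance trend, libraries and replicate block. No sequences or coordinates are given, since no table of the files' build was used here.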

Additional observations from a re-analysis of the deposited data

Results flagged for a closer look

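OsTPP3 is listed because its cold response differed between lines by a test of the difference itself. PL9 exceeded Nipponbare by 1.90 on the log2 scale (limma adjusted p = 0.0166), and PL9 exceeded Sasanishiki by 1.81 (adjusted p = 0.0415). OsTPP3 was below its untreated mean in all 3 cold libraries of Nipponbare and of Sasanishiki, and above it in all 3 cold libraries of PL9. The untreated PL9 level, 3.0 ± 0.612 (SD, n = 3 libraries), was the lowest of the 4 lines. The PL9 cold group includes the 2 libraries that correlated least with their own group. With cold library 3 of PL9 alone, the difference from Nipponbare was 1.87 and that from Sasanishiki 1.78; 1 library has no spread of its own, so these are given as values only.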

How the results depend on the processing

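Summing rows as deposited mixes libraries by construction for OsTPP1 and OsTPS1: OsTPP1 then gave 0.75 in Nipponbare, 0.28 in Sasanishiki, -0.57 in PL9, 0.11 in Lambayeque1 and 0.14 on average, and OsTPS1 -0.01, 0.18 and -0.22 in Nipponbare, Sasanishiki and Lambayeque1 and -0.01 on average, with no call. The values of these 2 genes rest on the read-back, and no test with identifiers on 1 row only was possible for them. The same holds for list identifiers on several rows, among them Os08g0445700, Os02g0790500, OsHXK7, TDR, OSK3, SnRK1A and Os12g0274700.

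Fitting only the lines compared (fewer libraries) kept each value but ended the calls of OsTPP1 in Nipponbare (-1.51, adjusted p = 0.0677) and PL9 (-1.70, 0.0768), OsTPP2 in PL9 (-0.79, 0.149) and OsTPP3 in Nipponbare (-1.09, 0.0802), and called OsTPS1 in PL9 (0.67, 0.0461). Median-of-ratios rescaling called OsTPS1 in Nipponbare (0.72, 0.0489). PL9 cold library 3 alone, chosen after seeing the data and assumed to vary like the other groups, ended the call of OsTPP2 in PL9 (-0.72). The OsTPP3 difference between PL9 and Sasanishiki was also lost with a pseudocount of 5 (1.11, 0.0648), no filter (1.81, 0.0514) or only those lines (1.81, 0.115), and that between PL9 and Nipponbare with only those lines (1.90, 0.0911).

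Leaving out 1 library of the line moved OsTPP1 in Nipponbare from -1.90 to -1.12, OsTPP2 in Nipponbare from -0.02 to 0.33 and in PL9 from -1.04 to -0.50, OsTPP3 in Nipponbare from -1.43 to -0.69, in Sasanishiki from -1.11 to -0.92 and in PL9 from 0.48 to 1.14, and OsTPS1 in Nipponbare from 0.54 to 1.05. The 4 averages over lines kept direction and call in each of the 24 fits without 1 library. Libraries of other lines bear on a response only through the shared spread: leaving 1 out changed 8 of 288 calls, all for OsTPP3 in PL9 and OsTPS1 in Nipponbare or PL9, which then passed.

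Deviations of same-numbered libraries showed no clear positive correlation (-0.40 to 0.121, over 0.1 in 2 of 12 pairs), and the main test treats the libraries as unpaired. Such correlations cannot show whether equal numbers share a pot or day. With a replicate block, OsTPP3 in Sasanishiki (-1.0) lost its call, as did its 2 differences between lines given above, and no other call of the 4 genes within lines changed. Comparisons between untreated or cold lines could not be fitted with that block. With identifiers on 1 row only, 1 synthase identifier fell and 3 precursor identifiers rose (3 also with rows summed); the SnRK1 count of 2 dropped to 0 or 1 in 6 settings. Calls over all identifiers in PL9 went from 4864 to 1432 with its libraries alone, to 1975 with cold library 3 alone (61% of them higher) and to 2289, 2890, 2678 and 2725 without untreated library 1 or 2 or cold library 2 or 3, and in Sasanishiki from 7203 to 3394 with its libraries alone and to 4540 without untreated library 1.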

Other observations

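The identifiers given here were picked from the lists after their values were seen. OsTPP6 (Os08g0409100) rose in Sasanishiki from 7.10 ± 3.22 to 24.2 ± 6.19 (SD, n = 3 libraries each; log2 difference 1.68, limma adjusted p = 0.00197). That response exceeded the one in Nipponbare by 2.15 (adjusted p = 0.0162), and the response of Lambayeque1 minus that of Sasanishiki was -2.56 (adjusted p = 0.00805). Its difference from PL9 did not pass (PL9 minus Sasanishiki -1.52, adjusted p = 0.14). Of the 9 identifiers planned as synthases, 6 fell in Sasanishiki, where 13.1% of all identifiers fell, and 1 of the 6, Os09g0397300, was at the threshold (adjusted p = 0.0499). Untreated Sasanishiki libraries were uneven for this list, with sums from 179.7 to 786, against 177 to 208 after cold. For Os05g0517200 and Os09g0397300, both among the 6, cold and untreated libraries of Sasanishiki overlapped. In each other line 1 of 9 fell, near the 14.8%, 8.24% and 12.1% of all identifiers in Nipponbare, PL9 and Lambayeque1, and whether the list differs between lines was not tested. The unnamed Os10g0521000, at 26.5 ± 2.95 untreated and 87.3 ± 0.709 after cold in Sasanishiki, responded more there than in Nipponbare by 1.45 (adjusted p = 0.0336), while its differences from PL9 and Lambayeque1 did not pass (adjusted p = 0.185 and 0.163).

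OsTPP4 fell more in PL9 than in Nipponbare (difference in response -1.59, adjusted p = 0.00992), from 9.12 ± 0.988 to 1.17 ± 0.363 in PL9 (SD, n = 3 libraries each). Os08g0445700 had a response in PL9 above that in Nipponbare by 2.45 (adjusted p = 0.0194), without a rise in PL9. Its mean went from 26.4 ± 3.63 to 3.08 ± 0.543 in Nipponbare and from 10.4 ± 1.63 to 9.23 ± 5.67 in PL9, where the groups overlapped.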
